A study of Mus musculus with 4 samples.

Results

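The comparison described here sets CD25+ against CD25- CD4-lineage thymocytes in the pair of libraries labelled PD-1 knockout. Member cells were chosen by transcripts. A barcode had to carry at least 500 genes, under 10% mitochondrial UMIs (unique molecular identifiers, each standing for 1 captured RNA molecule), at least 1 UMI of Cd4 or Trac, and no UMI of Ptcra or Rag1. The rule found 832 members among 10801 barcodes of the CD25+ library and 1528 among 3577 barcodes of the CD25- library, 2360 of the 28302 barcodes of the whole series. Single-cell RNA was captured from the 5′ end of transcripts in 4 libraries, 1 for each genotype and gate. Per the labels, the thymi came from C57BL/6J mice 3 weeks old, either WT or lacking PD-1, and 4 animals were pooled. Cells bearing CD8 were depleted, and live CD4+ HSA+ CD73- cells were sorted as CD25- or as CD25+. The protocol's stain list names CD74 where the gate names CD73, and the sources used here do not say whether both gates of 1 genotype came from 1 pool. With 1 library a side there is no replicate check, no test was made, and every interval is a 95% interval for counting error only.

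Thymocytes that carry a T cell receptor for self antigen can be deleted or can become regulatory T cells, the Foxp3-dependent lineage that restrains immune responses. CD25, the alpha chain of the interleukin-2 receptor encoded by Il2ra, marks both regulatory T cells and their precursors, in which interleukin-2 acts through the kinase-activated factor STAT5. CD25 is also present on early thymocytes that have neither CD4 nor CD8 and still rearrange their receptor genes. PD-1, encoded by Pdcd1, is an inhibitory receptor that dampens signals from the T cell receptor.

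Members were 8.23% of the 10110 barcodes that passed the quality limits in the CD25+ library, against 86.5% of 1767 in the CD25- library. The quality limits left out 6.40% and 50.6% of the barcodes of these libraries. Members of the CD25+ and CD25- libraries had a median of 5708 and 6723.5 UMIs, and their sums were 5751192 and 10679427 UMIs. All levels below are CPM, the UMIs of a gene scaled to a total of 1000000 for the members of a library. The libraries shared 49 barcodes, 1 of them a member in both. The rule's own genes, given as a description, stood at 220 CPM (CD25+) and 345 CPM (CD25-) for Cd4, and at 140 and 164 CPM for Trac. Of the CD25+ members 37.0% had exactly 1 UMI of Cd4 plus Trac, against 19.6% of the CD25- members. Both Cd4 and Trac were seen in 35.2% of CD25+ and 51.6% of CD25- members.

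T cell markers not specific to CD4 cells were present on both sides, with traces of earlier cells on the CD25+ side. Cd5, a receptor of selected T cells, stood at 535 CPM in CD25+ and 537 CPM in CD25- members, against 18.97 CPM in the CD25+ library's cells with a Ptcra or Rag1 UMI. Cd3e stood at 998 and 1270.0 CPM, against 1207 CPM in those cells, and the receptor gene Trbc2 at 926 and 1017 CPM, against 956 CPM. Of these markers only Cd5 separated members from the cells with a Ptcra or Rag1 UMI. The 14 genes of a double-negative list (early thymocyte genes such as Dntt, Kit and Notch3) summed to 163 CPM in CD25+ and 59.8 CPM in CD25- members, against 2188 CPM in the cells with a Ptcra or Rag1 UMI. The listed gene Dtx1 was lower in CD25+ members, with a log2 ratio of -1.15, and so narrows the gap between the gates. Within CD25+ members the sum of the list was 274 CPM in cells with 1 UMI of Cd4 plus Trac, 141 CPM with 2, 67.1 CPM with 3 or 4, and 122 CPM with 5 or more. Just outside the rule, 1274 CD25+ cells without a UMI of any of the 4 genes held 1354 CPM of the list and 81.9 CPM of Cd5, and 380 cells with Cd4 or Trac but also Ptcra or Rag1 held 1599 and 161 CPM.

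**Figure D1:**
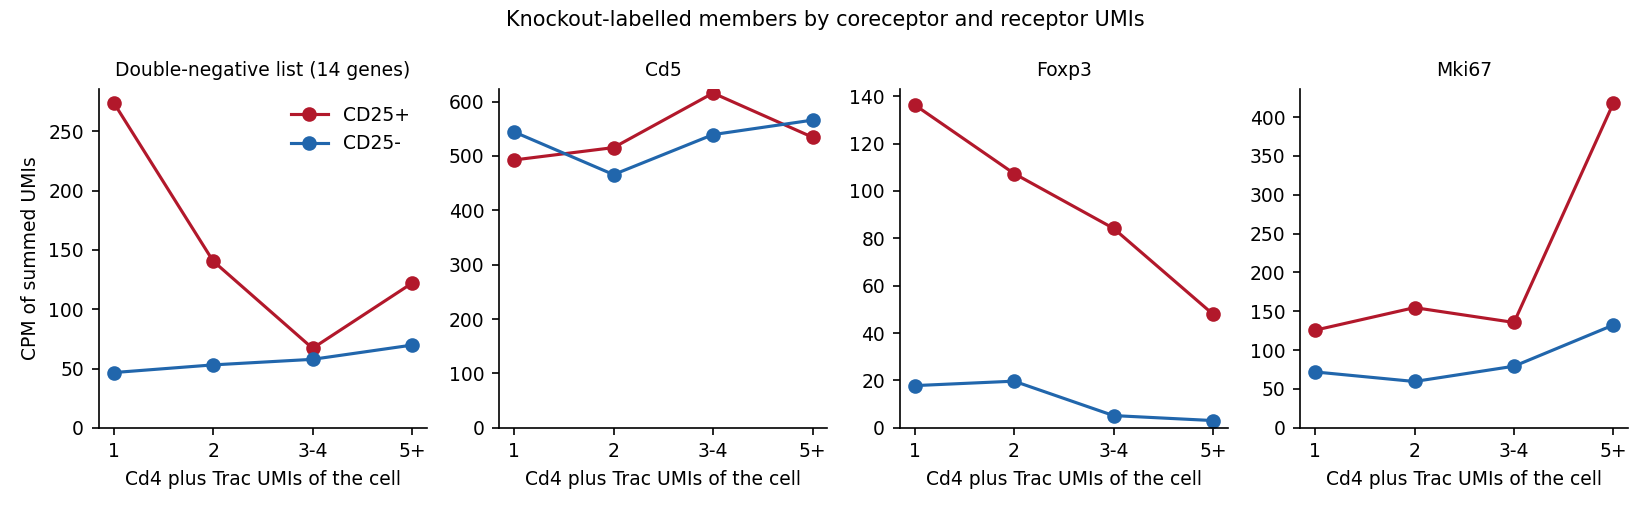
Levels (CPM of summed UMIs, linear axes from 0, no error bars) of the double-negative list, Cd5, Foxp3 and Mki67 in knockout-labelled members grouped by their Cd4 plus Trac UMIs, CD25+ in red and CD25- in blue. In CD25+ members the double-negative list is at 274, 141 and 67.1 CPM in the first 3 classes and Mki67 is highest, at 418 CPM, in cells with 5 or more UMIs, while Cd5 stays between 492 and 616 CPM.

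Pdcd1, the gene named by the knockout label, was detected in all 4 sets of members. It stood at 67.6 CPM (61.1 to 74.7) in CD25+ and 26.1 CPM (23.1 to 29.4) in CD25- members of the knockout-labelled pair, and at 43.1 and 18.1 CPM in the WT pair. The transcript level does not check the label, since the labels do not say which part of the gene was deleted.

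Of 6989 genes at 20 CPM or more in either library, 767 (11%) were at least 1.5-fold higher in CD25+ members and 704 (10.1%) at least 1.5-fold lower, together 21%. The median log2 ratio of these genes was -0.01. The text names the 12 highest and the 12 lowest ratios that kept their call when cells were weighted equally and when both Cd4 and Trac were required.

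**Figure D2:**
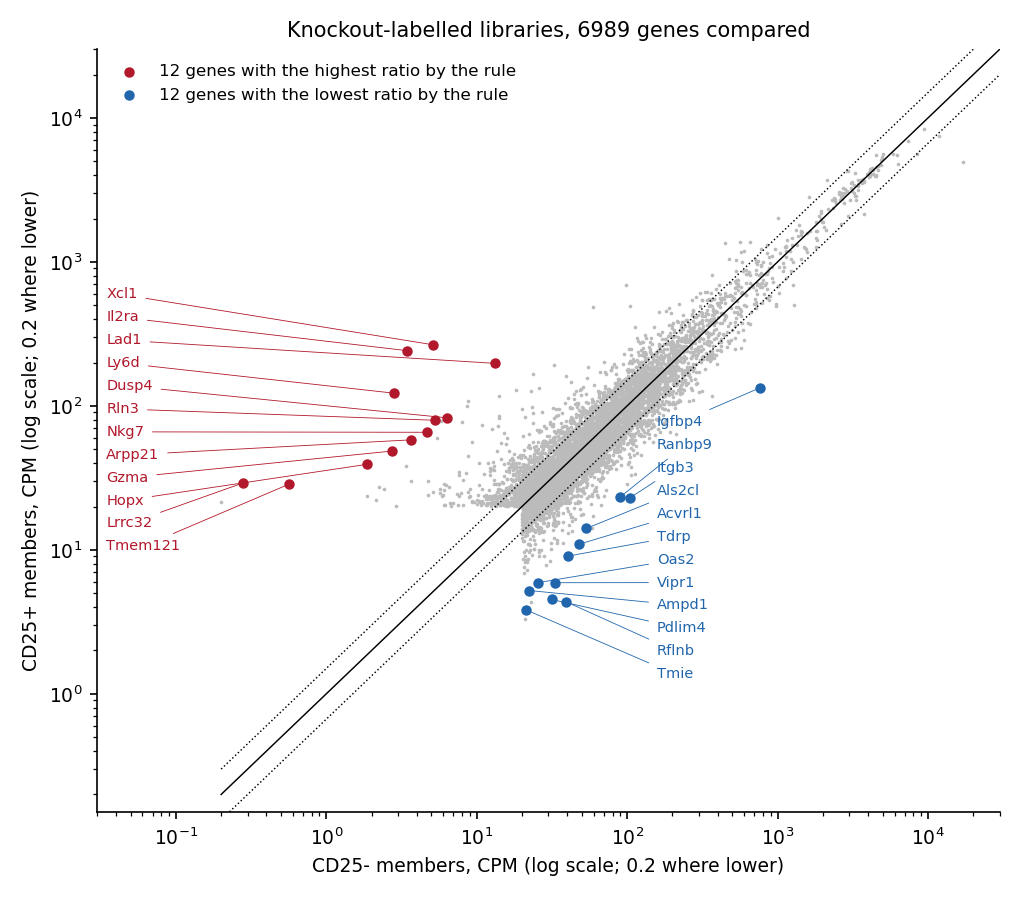
Level of each of 6989 genes in CD25- members (x) and CD25+ members (y) of the knockout-labelled pair, in CPM on log axes, with the line of equality and dotted lines at 1.5-fold. The 12 named genes above the lines (red) have 0.28 to 13.3 CPM in CD25- members, and the 12 below (blue) range from Tmie at 21.3 CPM to Igfbp4 at 767 CPM there.

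Of the 12 named genes that were higher, Lrrc32, Il2ra, Xcl1 and Tmem121 had the highest ratios. Lrrc32, which displays latent TGF-beta on regulatory T cells, had 168 UMIs in CD25+ and 3 UMIs in CD25- members, 29.2 against 0.28 CPM, a ratio of 104 (35.0 to 509). Il2ra followed with 242 against 3.46 CPM, 69.8-fold (50.4 to 99.5), in a gate set on its product. Xcl1, a chemokine for cross-presenting dendritic cells, stood at 266 against 5.15 CPM, 51.6-fold (39.4 to 68.8). Its 1527 UMIs came from 104 of the 832 CD25+ members, and 10 cells held 49.2% of them. Tmem121 was 50.8-fold higher, Hopx, a homeodomain protein without DNA binding of its own, 21.0-fold, Rln3, the hormone relaxin-3, 15.2-fold, Lad1, which encodes ladinin, 14.8-fold, and Dusp4, a phosphatase of MAP kinases, 13.0-fold.

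Ly6d, Arpp21, Gzma, Tmem121 and Nkg7 had smaller ratios among members without a UMI of the double-negative list, whose part in them was not tested. A UMI of any listed gene, Dtx1 included, left a cell out, and 578 CD25+ and 1163 CD25- members remained. Ly6d, a surface protein of lymphoid progenitors, was 43.6-fold higher, and its log2 ratio was 5.45 over all members and 1.97 over those without such a UMI. Arpp21 was 15.9-fold higher, with log2 ratios of 3.99 and 2.04. Gzma, the cytotoxic protease granzyme A, was 17.9-fold higher (48.5 against 2.72 CPM), with log2 ratios of 4.16 and 2.23 (1.96 with both Cd4 and Trac required), and 60.2% of its CD25+ UMIs lay in 10 cells. Nkg7, of cytotoxic granules, stood at 65.6 against 4.68 CPM, with log2 ratios of 3.81 and 3.14, and those of Tmem121 were 5.67 and 4.61. Xcl1, Il2ra and Lrrc32 kept log2 ratios of 5.73, 5.89 and 7.09 without these cells.

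Rflnb, Pdlim4 and Igfbp4 had the lowest ratios of the 12 named. Rflnb, an actin regulator, stood at 4.35 CPM in CD25+ against 39.5 CPM in CD25- members, 9.09-fold lower (6.07 to 14.2). Igfbp4, which binds insulin-like growth factors, stood at 134 against 767 CPM, 5.73-fold lower (5.32 to 6.18). The PDZ-LIM protein gene Pdlim4 was 6.96-fold lower, Vipr1, a receptor for vasoactive intestinal peptide, 5.62-fold, Tmie 5.58-fold, and Itgb3, the integrin beta-3 chain, 4.54-fold. Tdrp, Acvrl1 (a receptor of the TGF-beta family), Oas2 (an interferon-induced sensor of double-stranded RNA), Ampd1 (AMP deaminase), Ranbp9 and Als2cl were 3.80- to 4.45-fold lower. With both Cd4 and Trac required, the log2 ratios of Pdlim4 and Vipr1 were -1.98 and -1.82, against -2.80 and -2.49 over all members. All 24 genes except Gzma had the same direction in the WT pair.

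Regulatory T cell genes were higher in the CD25+ members as a group. All 16 listed genes reached 20 UMIs, 12 were at least 1.5-fold higher and none lower, with a median log2 ratio of 1.92 against -0.01 for all genes compared. The 12 include Il2ra, whose direction was fixed by the gate. Among all genes compared 11% were higher and 10.1% lower. Foxp3 (chrX:7573644-7595245, plus strand, GRCm38), the factor that fixes the lineage, stood at 99.1 CPM (570 UMIs) in CD25+ and 8.61 CPM (92 UMIs) in CD25- members, 11.5-fold higher (9.22 to 14.5). Ikzf2, which encodes Helios, stood at 692 against 98.9 CPM, a log2 ratio of 2.81. Ctla4, an inhibitory receptor that competes for CD28 ligands, was 6.09-fold higher at 85.5 against 14.05 CPM. The costimulatory receptor genes Tnfrsf4 (OX40) and Tnfrsf18 (GITR) were 4.73- and 3.09-fold higher. Icos, Capg, Izumo1r and Gpr83 stayed within 1.5-fold, with log2 ratios of -0.12, 0.36, 0.09 and 0.02.

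Most CD25+ members showed no Foxp3 UMI before thinning to equal depth, which can only lower the share with one. Each cell was thinned to 1500 UMIs, which left out 21 CD25+ and 41 CD25- members. Foxp3 was then seen in 15.7% (13.2 to 18.3) of 811 CD25+ members, 1.34% of 1487 CD25- members and 0.417% of the CD25+ library's cells with a Ptcra or Rag1 UMI. The unthinned shares were 25.1%, 3.34% and 1.69%, at median depths of 5708, 6723.5 and 6214.5 UMIs. Il2ra was seen in 23.9% of thinned CD25+ and 0.202% of CD25- members, but in 78.4% of the cells with a Ptcra or Rag1 UMI. Ctla4 was seen in 13.9%, 1.55% and 13.4% in the same order, and without thinning in 27.4%, 6.81% and 38.3%. Il2ra was thus less frequent in CD25+ members than in those cells, and Ctla4 was not more frequent without thinning. Ikzf2 was seen in 50.3% and 7.67%, against 17.0% of the cells with a Ptcra or Rag1 UMI. Without thinning, 145 of 832 CD25+ members (17.4%) held both Il2ra and Foxp3, 202 (24.3%) Il2ra alone, 64 (7.69%) Foxp3 alone and 421 (50.6%) neither. A cell without a UMI may still express the gene.

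The 3 chains of the interleukin-2 receptor differed from each other. Il2ra was higher, as given above. Il2rb, the shared beta chain, was 5.11-fold higher at 132 against 25.9 CPM. The common gamma chain gene Il2rg was 1.31-fold lower at 648 against 848 CPM. Il7r, the receptor chain for interleukin-7, was 3.12-fold lower at 118 against 367 CPM, and Il4ra 1.76-fold lower. Of 7 measured genes of this receptor family 2 were higher, Il2rb and the gated Il2ra, and 2 lower. Among all genes compared 11% were higher and 10.1% lower. Il2 itself gave 1 UMI in CD25+ and 0 in CD25- members, so no ratio is given. None of 1487 thinned CD25- members had an Il2 UMI, and the interval of that share reaches 0.248% of cells.

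STAT5-induced genes went both ways. Of 12 listed genes 6 were higher (Cish, Socs2, Il2ra, Il2rb, Lta and Gadd45g) and 3 lower (Pim2, Osm and Bcl2). Il2ra is counted here although the gate on its product fixed its direction. All genes compared had 11% higher and 10.1% lower. The median log2 ratio was 0.42, and -0.12 over the same genes when cells with a Foxp3 UMI were left out on both sides. Cish, a feedback inhibitor of cytokine receptors, stood at 94.4 against 19.9 CPM, 4.73-fold higher (4.03 to 5.57). Socs2, another feedback inhibitor, had 44 and 6 UMIs, 13.6-fold higher (5.78 to 39.1), with 61.4% of the CD25+ UMIs in 10 cells and a log2 ratio of 1.70 in place of 3.77 where both Cd4 and Trac were required. Lta, which encodes lymphotoxin alpha, stood at 53.7 against 22.3 CPM. Pim2, a survival kinase, stood at 21.7 against 46.8 CPM. Socs1 did not differ, at 169 CPM (CD25+) and 168 CPM (CD25-).

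The promoters of Cish and Lta are shown because both genes were higher and both windows hold the STAT-type motif TTCNNNGAA, in capitals, at 2 places. The motif is its own reverse complement, so 1 search covers both strands. The windows run from 250 bases before to 50 bases after the RefSeq start (GRCm38.p6), Cish at chr9:107296409-107296708 on the plus strand and Lta at chr17:35205302-35205601 on the minus strand, printed 5′ to 3′ on the gene's strand.
Cish: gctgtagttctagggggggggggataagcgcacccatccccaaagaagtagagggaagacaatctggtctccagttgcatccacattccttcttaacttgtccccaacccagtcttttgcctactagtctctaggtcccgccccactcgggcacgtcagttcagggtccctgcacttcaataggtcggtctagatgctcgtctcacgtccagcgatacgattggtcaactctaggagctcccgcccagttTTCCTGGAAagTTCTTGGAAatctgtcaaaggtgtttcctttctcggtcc
Lta: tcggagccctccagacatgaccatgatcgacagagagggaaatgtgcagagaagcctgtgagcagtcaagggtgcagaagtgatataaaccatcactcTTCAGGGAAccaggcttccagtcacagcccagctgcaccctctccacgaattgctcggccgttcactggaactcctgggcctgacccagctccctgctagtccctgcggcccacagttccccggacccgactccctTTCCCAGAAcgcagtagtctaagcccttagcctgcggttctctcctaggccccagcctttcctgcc
In Cish the motifs begin 0 and 11 bases from the start, and in Lta at -152 and -16. At least 1 such motif occurs in 2726 of 32851 RefSeq promoter windows of this length (8.30%) and 2 or more in 150 (0.457%). The table matched 9 of the 12 STAT5-list genes with 10 windows, of which 3 hold the motif (Cish, Lta and Socs3). It matched 10 of the 16 regulatory T cell genes with 11 windows, of which 2 hold it (Tnfrsf18 and 1 of the Foxp3 starts). Socs3, with 1 motif, was 1.47-fold lower. A match of letters shows no binding.

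Genes that respond to T cell receptor signals split between the NR4A and EGR families. Of 22 listed genes 11 were higher and 4 lower, against 11% and 10.1% of all genes compared, with a median log2 ratio of 0.58. The orphan nuclear receptor genes Nr4a1, Nr4a2 and Nr4a3 were 2.35-, 6.08- and 2.54-fold higher, with Nr4a1 at 352 against 150 CPM. Tnfrsf9, the costimulatory receptor 4-1BB, stood at 485 against 59.1 CPM, 8.20-fold higher (7.52 to 8.96). Bhlhe40, Spry1 and Irf8 were 20.1-, 15.3- and 3.78-fold higher, and Cd83, which had 73 and 4 UMIs, 33.9-fold (12.7 to 128). The zinc-finger factor genes Egr1, Egr2 and Egr3 were 1.69-, 1.63- and 1.68-fold lower, with Egr1 at 104 against 176 CPM, and the ERK phosphatase gene Dusp6 was 2.10-fold lower. Cd5, whose level follows receptor signal strength, was equal in both, with a ratio of 1.00 (0.95 to 1.04).

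Cd69, an activation marker that holds cells in the thymus, was 1.18-fold lower by CPM (119 against 140). It was seen in 17.5% of thinned CD25+ and 16.4% of CD25- members, so no order is given.

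NF-kB, TNF receptor, inhibitory and death-related genes were mostly higher or level. The shares over all genes compared were 11% higher and 10.1% lower. 3 of 12 NF-kB genes were higher (Nfkb2, Rel and Traf1, at 1.87-, 1.63- and 1.85-fold) and none lower. In the TNF receptor family 4 of 9 were higher and 2 lower. Tnfrsf1b, which encodes TNF receptor 2, stood at 95.1 against 33.5 CPM, and Tnfrsf1a, which encodes TNF receptor 1, at 29.7 against 49.6 CPM. Of 8 other inhibitory receptor genes measured, 5 were higher (Ctla4, Tigit, Lag3, Cd160 and Cd200) and 1, Vsir, lower. Lag3 rested on 35 and 6 UMIs. In the Bcl2 family 7 of 13 were higher and 1 lower. Bcl2l11, the death activator BIM, stood at 122 against 44.5 CPM, 2.74-fold higher (2.43 to 3.08). The survival genes Bcl2l1 and Bcl2a1d were 1.82- and 3.79-fold higher, while Bcl2 stood at 207 against 354 CPM. Bcl2a1b and Bcl2a1d are near-identical copies, so their counts are uncertain one by one.

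Maturation, egress and interferon genes were lower in CD25+ members. Of 16 maturation and egress genes 12 were lower and none higher, with a median log2 ratio of -0.82. Among all genes compared 10.1% were lower and 11% higher. S1pr1, the receptor that draws mature thymocytes out into the blood, stood at 75.5 against 176 CPM, 2.33-fold lower. Ccr7, a receptor for medullary chemokines, stood at 282 against 465 CPM (log2 ratio -0.72, and -0.36 without double-negative UMIs), and Slfn1, a quiescence gene, at 126 against 316 CPM. Of 17 interferon-induced genes 12 were lower and none higher, with a median of -0.67. Irf7, an interferon-induced transcription factor, stood at 124 against 224 CPM. With cells weighted equally the medians of the egress and interferon lists were -0.49 and -0.33.

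Genes of immature single-positive cells did not move as one. Of 12 listed genes 2 were higher, Cd24a and Sox4, and 7 lower, with a median log2 ratio of -0.96. The shares over all genes compared were 11% and 10.1%. Cd24a encodes HSA, on which the cells were gated. It stood at 192 against 32.8 CPM, 5.87-fold higher, with log2 ratios of 2.55 over all members and 1.85 without double-negative UMIs. Satb1, a chromatin organiser, stood at 498 against 1291 CPM, and Ccr9, a chemokine receptor of immature thymocytes, at 109 against 273 CPM.

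Lineage and receptor genes leaned lower. Of 14 regulators of the helper lineage 3 were higher and 7 lower, against 11% and 10.1% of all genes compared. Zbtb7b, which encodes the CD4-lineage factor ThPOK, was 2.32-fold lower at 36.2 against 84.0 CPM, and Lef1 and Tcf7 stood at 507 against 973 CPM and 578 against 893 CPM. Myb was 5.50-fold higher, with log2 ratios of 2.46 over all members and 1.05 without a UMI of the double-negative list. The receptor complex was nearly level: 2 of 12 CD3 and costimulation genes were lower (Cd247 and Thy1), and 4 of 14 proximal signalling genes (among them Fyn, Themis and Grap2). None of these 26 genes was higher.

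Cell division and ribosome assembly genes were higher. Of 19 proliferation genes 16 were higher and none lower, with a median log2 ratio of 0.89. Mki67 stood at 195 against 94.4 CPM, and Ube2c, of the anaphase machinery, at 104 against 38.8 CPM. Mki67 was seen in 7.77% of thinned CD25+ and 4.51% of CD25- members, and in 8.59% of the cells with a Ptcra or Rag1 UMI. Of 13 ribosome assembly genes 10 were higher, with a median of 0.87. Ncl (nucleolin) stood at 1044 against 479 CPM and Npm1 at 2033 against 1000.3 CPM. The chaperone genes Hspd1, Hspe1 and Hsp90aa1 were 2.77-, 1.98- and 1.87-fold higher, whereas the heat-induced Hspa1b was 2.74-fold lower. Of 14 oxidative phosphorylation genes 2 (Cox5a and Ndufb8) were at least 1.5-fold higher and none lower. All 14 had a positive log2 ratio, with a median of 0.38. Of 15 glycolytic genes 4 were higher (Hk2, Tpi1, Gapdh and Pgam1) and 2 lower (Slc2a3 and Eno1), with a median of 0.24. Over all genes compared 11% were higher and 10.1% lower.

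**Figure D3:**
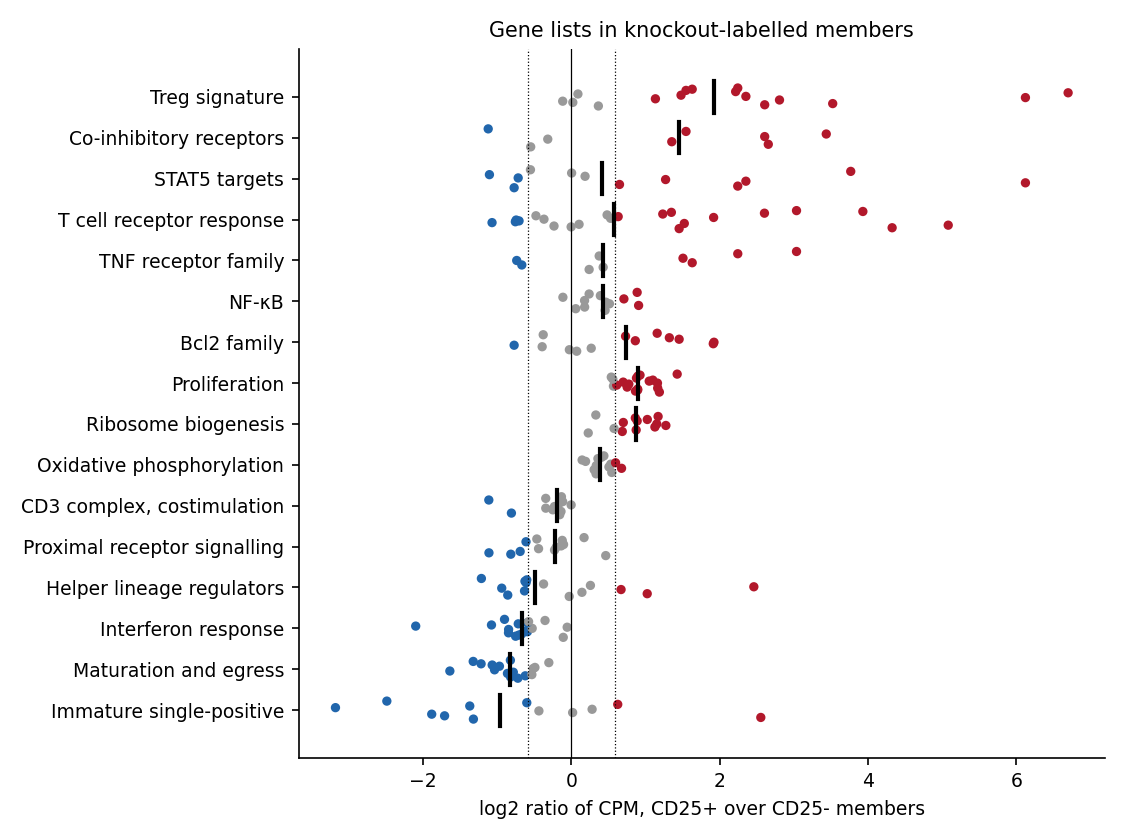
Log2 ratio of CPM, CD25+ over CD25- members of the knockout-labelled pair, for each gene with at least 20 UMIs in 16 lists, 1 point a gene, red at 1.5-fold or more above, blue below, grey between. Black bars are list medians, from 1.92 for the regulatory T cell list to -0.96 for the immature single-positive list.

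Markers of other cells differed with the gate, and their part in the results above was not tested. Of 10 double-negative genes measured 9 were higher and 1, Dtx1, lower, with a median log2 ratio of 3.95. Dntt stood at 77.5 against 7.96 CPM. Mpzl2 had 56 UMIs against 0, a ratio of 34.7 when the 0 is set to 3 counts. 4 of the 14 listed genes were at 0 in CD25- and none in CD25+ members. 5 of 7 gamma-delta genes were higher, and the list summed to 102 against 21.0 CPM. Its median log2 ratio of 2.16 turned to -0.76 without cells holding a double-negative UMI. Innate-like genes summed to 125 against 12.6 CPM and genes of myeloid and dendritic cells to 329 against 265 CPM. B cell genes summed to 44.9 against 68.9 CPM, with Pax5 at 0, stromal genes to 83.1 against 108 CPM with Krt5 at 0, and erythroid genes to 0.17 against 0.19 CPM. The medians ran the other way from the B cell and stromal sums. Of 3 B cell genes measured Cd79a and Cd79b were higher and Ighm lower (median log2 ratio 0.89). Of 2 stromal genes Epcam was higher and Pecam1 lower (median 0.70). Gm42418, an annotation that overlaps ribosomal RNA, was lower, with a log2 ratio of -1.78. Without cells holding a double-negative UMI, 585 genes were higher and 615 lower. The regulatory T cell median was then 1.89, the interferon median -0.40, the egress median -0.57, the proliferation median 0.74 and the ribosome assembly median 0.58.

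CD25+ members with and without a Foxp3 UMI had different profiles, given here as a description because Foxp3 and depth set the split. The 209 cells with a Foxp3 UMI (25.1%) had a median of 4382 UMIs, and the 623 without had 6191. Of 6997 genes compared, the cells with a Foxp3 UMI had 871 (12.4%) higher and 1568 (22.4%) lower by 1.5-fold or more.

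Il2ra, Il2rb, Cish, Ctla4 and Lta were highest in the cells with a Foxp3 UMI. Il2ra stood at 549 CPM with Foxp3, 169 CPM without and 3.46 CPM in CD25- members. Il2rb stood at 391, 71.2 and 25.9 CPM in the same order, Cish at 269, 52.9 and 19.9 CPM, and Ctla4 at 304, 33.8 and 14.05 CPM. Lta stood at 135, 34.4 and 22.3 CPM, Hopx at 145, 14.2 and 1.87 CPM, and Lrrc32 at 82.5, 16.6 and 0.28 CPM. Other genes of the same lists were not highest there. Ikzf2 had 582 CPM in cells with a Foxp3 UMI and 718 CPM in those without, and Il2rg stood at 675, 642 and 848 CPM with Foxp3, without and in CD25- members. Icos stood at 78.0, 99.6 and 104 CPM, Bcl2 at 294, 186 and 354 CPM, Pim2 at 22.7, 21.5 and 46.8 CPM, and Tigit at 0.91, 4.52 and 1.31 CPM, the first on 1 UMI. Of the STAT5 list, set against CD25- members, 9 of 12 genes were higher in cells with Foxp3 and 4 of 11 in cells without, where 4 were lower. Both counts of higher genes include the gated Il2ra. Over all genes compared with CD25- members, 6.5% were higher and 13.3% lower in the cells with a Foxp3 UMI, and 14.7% were higher and 12.7% lower in those without.

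The lower egress and interferon levels lay in the cells without a Foxp3 UMI. There all 16 egress genes were lower than in CD25- members (median log2 ratio -1.23), and 15 of 17 interferon genes (median -1.02). In cells with a Foxp3 UMI 3 egress genes were higher and 1 lower (median 0.26), and 2 interferon genes higher and 1 lower (median 0.19). S1pr1 stood at 216 CPM with Foxp3, 42.2 CPM without and 176 CPM in CD25- members. Klf2, the factor that drives S1pr1, stood at 746, 206 and 443 CPM.

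Xcl1, Nr4a1, Bcl2l11 and Cd24a were highest in the cells without a Foxp3 UMI. Xcl1 had 6 UMIs in cells with a Foxp3 UMI (5.44 CPM, 2.00 to 11.8) and 1521 in cells without (327 CPM), beside 5.15 CPM in CD25- members. Nr4a1 stood at 133, 404 and 150 CPM with Foxp3, without and in CD25- members, Bcl2l11 at 36.3, 142 and 44.5 CPM, and Cd24a at 43.5, 228 and 32.8 CPM. Set against cells without a Foxp3 UMI, cells with one had 2 of 12 Bcl2 family genes higher and 6 lower, with Bbc3, Bax, Bak1 and Bad within 1.5-fold, and 1 of 22 receptor-response genes higher and 11 lower. All 19 proliferation genes and 11 of 13 ribosome assembly genes were higher in cells without a Foxp3 UMI than in CD25- members. In cells with one, 0 and 1 were higher, and 1 and 2 lower. Of 10 double-negative genes 1 was higher and 7 lower with a Foxp3 UMI than without, and of 6 gamma-delta genes none was higher and 4 were lower. Dntt stood at 35.4, 87.6 and 7.96 CPM, and Trdc at 9.07, 32.5 and 6.27 CPM, whereas Dtx1 stood at 32.6 CPM with Foxp3 and 18.5 CPM without, and Kit at 22.7 and 18.1 CPM.

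**Figure D4:**
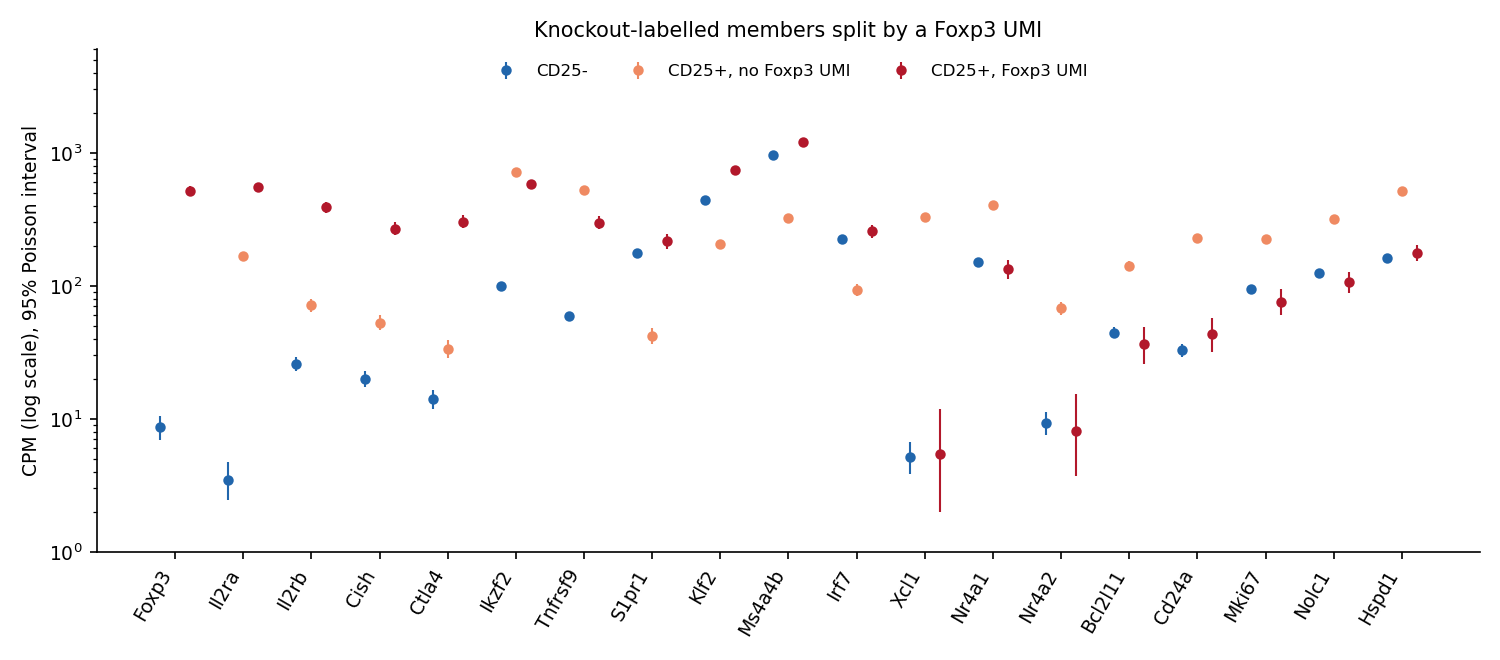
Level of 19 genes (CPM on a log axis, bars are 95% Poisson intervals) in CD25- members (blue), CD25+ members without a Foxp3 UMI (orange) and with one (red) of the knockout-labelled pair; a class with 0 UMIs has no point. Il2ra, Il2rb, Cish and Ctla4 are highest in red, S1pr1 to Irf7 are lowest in orange, and Xcl1 to Hspd1 are highest in orange.

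In the WT pair, read by the same rule with 1365 CD25+ and 2428 CD25- members, 531 of 6951 genes were higher (7.64%) and 453 lower (6.52%), together 14.2%. Of 6742 genes compared in both pairs, 407 were higher in both, 59.7% of the 682 knockout-labelled and 80.1% of the 508 WT genes. Lower in both were 324, 47.4% of 684 and 77.3% of 419. None of these 6742 genes was called in opposite directions. Gzma, at 5.29 (CD25+) and 11.6 CPM (CD25-) in WT, fell under the 20 CPM limit there and is not among them. With cells weighted equally 605 genes were lower in the knockout-labelled pair and 1003 in WT, which turns the order of the lower counts. The same sign in WT was held by 99.1% of the genes higher in the knockout-labelled pair, where 47.7% of all genes had a positive sign.

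List counts differed in size between the pairs, a difference that was not tested. Lower egress genes numbered 12 of 16 in the knockout-labelled pair and 2 of 16 in WT (medians -0.82 and -0.40). Lower interferon genes numbered 12 and 3 of 17, and higher ribosome assembly genes 10 and 4 of 13. The knockout-labelled pair also had more calls over all genes, 10.1% lower and 11% higher against 6.52% and 7.64% in WT. With cells weighted equally its egress and interferon medians were -0.49 and -0.33. Foxp3-UMI cells made up 25.1% of CD25+ members in the knockout-labelled and 32.0% in the WT library. Within the classes the WT values had the same order for S1pr1 (280, 82.4 and 189 CPM with Foxp3, without and in CD25- members). Xcl1 stood at 21.6, 222 and 0.79 CPM there, and Mki67 at 30.3, 209 and 77.7 CPM.

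**Figure D5:**
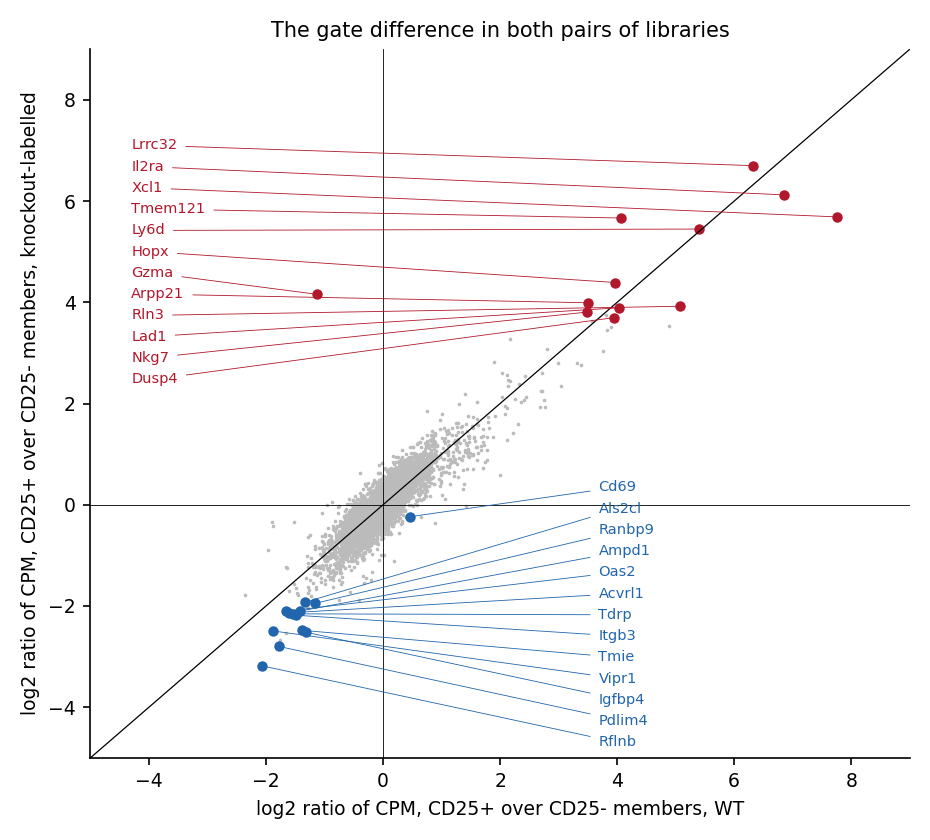
Log2 ratio of CPM, CD25+ over CD25- members, in WT (x) and in the knockout-labelled pair (y), for genes compared in both (grey), with the line of equality. The 12 highest genes (red) and the 12 lowest plus Cd69 (blue) are named; Gzma (4.16 against -1.14) and Cd69 (-0.24 against 0.46, both within 1.5-fold) lie in opposite quadrants.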

How the data were processed

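Matrices of raw UMI counts from 10x libraries, 1 a library, were read as deposited by the authors; the submitters' processing notes name Cell Ranger 6.2.1 and mm10, while the file headers give Cell Ranger 6.1.2. The members and gene lists were chosen with earlier results of these data known. Counts of member cells were summed per library over 32285 features and scaled to CPM. A gene was compared at 20 CPM or more in either library and called at 1.5-fold. List genes needed 20 UMIs over both libraries, so a rare gene could enter through 1 side alone. Levels have exact Poisson, ratios exact conditional binomial and shares exact Clopper-Pearson intervals (95%). A 0 was set to 3 counts in ratios. UMIs of free RNA cannot be told from a cell's own. Scrublet scores ranked the barcodes, and a preset share of the top of each library (0.8% per 1000 barcodes) was taken as doublets. These held 23 members of each knockout-labelled library, which were kept. Clusters were not used.

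Named genes are the 12 highest and 12 lowest ratios among genes with at least 100 UMIs whose interval leaves out 1 and whose call held under equal weighting and with both Cd4 and Trac (474 genes higher and 384 lower qualified), 21 genes fixed by name, and list extremes; receptor segments, sex-linked, mitochondrial, ribosomal and unnamed genes were left out. Further genes of the fixed lists are given as examples chosen with their values seen. Positions for 32158 features come from GENCODE vM21 (GRCm38), promoters from RefSeq. Alternatives changed cell rules, scaling, weighting, filters and the threshold; leaving out Foxp3-UMI cells was added after seeing the data. The sums were tested on simulated counts. Python 3.11.15, numpy 2.4.6, scipy 1.17.1 and scanpy 1.11.5 were used.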

Additional observations from a re-analysis of the deposited data

Results flagged for a closer look

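Of 87 named genes, 72 reached 20 CPM in the knockout-labelled pair. Among these, 8 had opposite signs in the pairs, and for 2 of them, Gzma and Cd69, both counting intervals of the ratio lay on opposite sides of 1. With 1 library a group the difference between pairs was not tested. The log2 ratio of Gzma, CD25+ over CD25- members, was 4.16 in the knockout-labelled pair and -1.14 in the WT pair, on 279 and 29 UMIs in the former and 44 and 148 in the latter. The log2 ratio of Cd69 was -0.24 in the knockout-labelled and 0.46 in the WT pair, both within 1.5-fold, and since the thinned shares in the knockout-labelled pair ran the other way, no order is given for Cd69 there. Ccl5, under 20 CPM in both pairs, had a log2 ratio of -4.06 on 2 and 62 UMIs in the knockout-labelled pair and 0.68 on 64 and 61 UMIs in the WT pair.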

How the results depend on the processing

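The counts of genes moved by more than 1.5 times mainly with the threshold and the filter on low values. Genes higher in the knockout-labelled pair numbered 767, and 1271 at 5 CPM, 467 at 50 CPM and 245 at 2-fold, while genes lower numbered 704, and 1158, 426 and 181. In WT, genes higher numbered 531, and 974, 280 and 196, and genes lower 453, and 749, 247 and 85 under the same settings, 300 with at least 1000 genes and under 5% mitochondrial UMIs a cell, and 1003 with cells weighted equally. The share of knockout-labelled calls that were higher was 52.1%, 46.6% with cells weighted equally, 55.2% centred on the median gene and 57.5% at 2-fold. With both Cd4 and Trac required, the log2 ratio of Fcer1g turned from 1.24 to -0.43, the myeloid median from 0.85 to -0.37 and the B cell median from 0.89 to -1.37. The B cell median was -0.45 at 3 or more UMIs of Cd4 plus Trac. The gamma-delta median turned to -0.76 without double-negative UMIs. Without Foxp3-UMI cells on both sides, an alternative chosen after seeing the data, 1028 genes were higher and 890 lower, and the STAT5 median went from 0.42 to -0.12 over the same 12 genes. Of the other values for single genes, 662 stayed within their counting interval and 200 moved beyond it without a called value changing sign. No paired analysis was possible because the knockout-labelled comparison has 1 library a side and the labels give no replicate number. A fit of gate and genotype over all 4 libraries, which would average the gate over genotypes, was not run.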

Other observations

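Some secreted products and homing receptors in the knockout-labelled members lie outside the groups described above. Penk, the enkephalin precursor, had 152 UMIs in CD25+ and 61 in CD25- members, 4.63-fold higher (3.42 to 6.33). It stood at 35.4 CPM in CD25+ members with a Foxp3 UMI and 24.3 CPM in those without. Ccl5, a chemokine of effector T cells, had 2 and 62 UMIs, 16.7-fold lower (4.43 to 141), but its log2 ratio of -4.06 was -0.04 among members with 3 or more UMIs of Cd4 plus Trac, and in the WT pair it was 1.61-fold higher (1.11 to 2.32). Ccr6 had 27 and 2 UMIs, 25.1-fold higher (6.30 to 218), and Cxcr4 was 2.93-fold higher.

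Of 13 regulators of the helper lineage, 2 were higher and 4 lower in CD25+ members with a Foxp3 UMI than in those without, against 12.4% and 22.4% of all genes. Single genes of several lists are given as values. Cd40lg, the ligand through which helper cells engage B cells, stood at 22.7 CPM in CD25+ members with a Foxp3 UMI, 126 CPM in those without and 135 CPM in CD25- members. Ccr4 stood at 0.91, 25.4 and 31.0 CPM, the first on 1 UMI. Bcl6, a repressor used by follicular helper cells, stood at 9.97, 32.9 and 14.05 CPM. Myc stood at 125 CPM in both CD25+ classes and 80.9 CPM in CD25- members. These genes were chosen from the fixed lists with their values seen.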
